A study of Homo sapiens with 4 samples.

Results

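The 43 genes described here encode chains of collagens (33 genes) and laminins (10 genes), out of 20162 protein-coding genes in the gene annotation used. They were listed by gene name and family, and the rule used no binding value, although the list was drawn up with earlier results of these data known. For each gene, FOXC1 peaks were counted when the summit, the base of highest pileup, lay in the gene body or within 20 kb of it, and this stretch is called the window. Because these genes are long, counts were also expressed per 100 kb of window. Windows ran from 52.0 kb at LAMB2 to 673 kb at LAMA2, with a median of 130 kb, and the median over all protein-coding genes was 67.2 kb.

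Binding of FOXC1 was mapped by ChIP-seq, in which DNA bound by a protein is pulled down with an antibody and sequenced, in J82, a human bladder cancer line kept in culture with no treatment given in the sample labels. The FOXC1 ChIP group comprised 2 biological replicates pulled down with the anti-FOXC1 antibody D8A6. The input group comprised 2 libraries from the same cells with no antibody, against which peaks were called, and their own files were not analysed here. The data thus cover a single cell line at a single state, with no group to compare it with and no measure of gene expression in these files. Replicate 1 listed 22405 peaks and replicate 2 listed 41789 on chromosomes 1 to 22, X and Y, from about 43.2 M and 41.5 M ChIP reads recovered from the peak values. Overlapping peaks of the replicates gave 13238 shared regions. Of these, 5983 had an irreproducible discovery rate (IDR) of 0.05 or less and are called reproducible. IDR is the estimated share of irreproducible pairs among all pairs of peaks that score at least as well, not the chance for a single pair. With 1 list per replicate, the values that follow are descriptions, and no test of a difference was made.

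FOXC1 is a forkhead transcription factor known for its part in mesenchymal tissues, blood vessels and the front of the eye. Collagens are triple helices of chains that form fibrils, networks or filaments outside the cell, and some chains instead sit on the surface of fibrils or span the cell membrane. Laminins are cross-shaped trimers of an alpha, a beta and a gamma chain that polymerise in basement membranes, where the type IV collagen network also lies, and epithelial cells of the bladder rest on such a membrane.

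Sequences of 101 bases around the summit are shown for 7 member regions, because they let the forkhead match be seen beside the binding values. They were read on the plus strand of GRCh37, the assembly of hg19, 5′ to 3′, and the capitals mark the forkhead match. The forkhead consensus was searched on both strands as ATAAACA, or with other letters as ATAAATA, as GTAAACA, or again with other letters as GTAAATA. The AP-1 consensus, the site of a different family of factors, was searched as TGACTCA, of which the reverse complement TGAGTCA is the other form, and these share no string with the forkhead words. Each is the best region of its gene by rank and holds a forkhead match, and those of LAMA4 and COL12A1 had an IDR above 0.05. The windows are chr9:137561956-137562056 in intron 1 of COL5A1, chr9:116986735-116986835 in intron 14 of COL27A1, chr13:111077776-111077876 in intron 6 of COL4A2 and chr6:70952000-70952100 in intron 29 of COL9A1. The others are chr1:182994923-182995023 in intron 1 of LAMC1, chr6:112537985-112538085 in intron 2 of LAMA4 and chr6:75867132-75867232 in intron 14 of COL12A1. Introns are those of the canonical transcript.
COL5A1: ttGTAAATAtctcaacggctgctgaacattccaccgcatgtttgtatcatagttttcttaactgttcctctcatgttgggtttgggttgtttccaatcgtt
COL27A1: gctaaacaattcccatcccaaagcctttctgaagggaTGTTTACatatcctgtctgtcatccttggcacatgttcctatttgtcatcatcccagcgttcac
COL4A2: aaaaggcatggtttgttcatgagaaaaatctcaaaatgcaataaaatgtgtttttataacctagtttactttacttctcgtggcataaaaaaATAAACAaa
COL9A1: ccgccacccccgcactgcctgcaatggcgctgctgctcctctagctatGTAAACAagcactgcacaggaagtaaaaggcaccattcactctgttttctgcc
LAMC1: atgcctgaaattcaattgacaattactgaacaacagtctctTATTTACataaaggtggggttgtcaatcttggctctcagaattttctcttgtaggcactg
LAMA4: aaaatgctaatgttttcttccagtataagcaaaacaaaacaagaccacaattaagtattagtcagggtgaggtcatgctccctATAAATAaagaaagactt
COL12A1: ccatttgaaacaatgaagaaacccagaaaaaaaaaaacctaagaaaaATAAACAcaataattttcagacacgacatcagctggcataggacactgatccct
The centre of the match lay 0 bp from the summit in COL12A1, 1 bp in COL9A1, 6 bp in LAMC1 and 10 bp in COL27A1. It lay 36 bp away in LAMA4 and 45 bp in both COL5A1 and COL4A2, close to the edge of the searched window.

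FOXC1 peaks were listed at most of these genes, in 1 or both replicates. Of the 43 genes, 28 had a replicate 1 peak in the window, beside 47.0% of all protein-coding genes, and 35 had a replicate 2 peak, beside 66.2%. A shared region was present at 22 genes (51.2%), beside 33.0% of protein-coding genes. A reproducible region was present at 11 genes (25.6%), beside 18.4%. No peak of either replicate was listed at 8 genes, beside 29.5% of protein-coding genes.

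**Figure D1:**
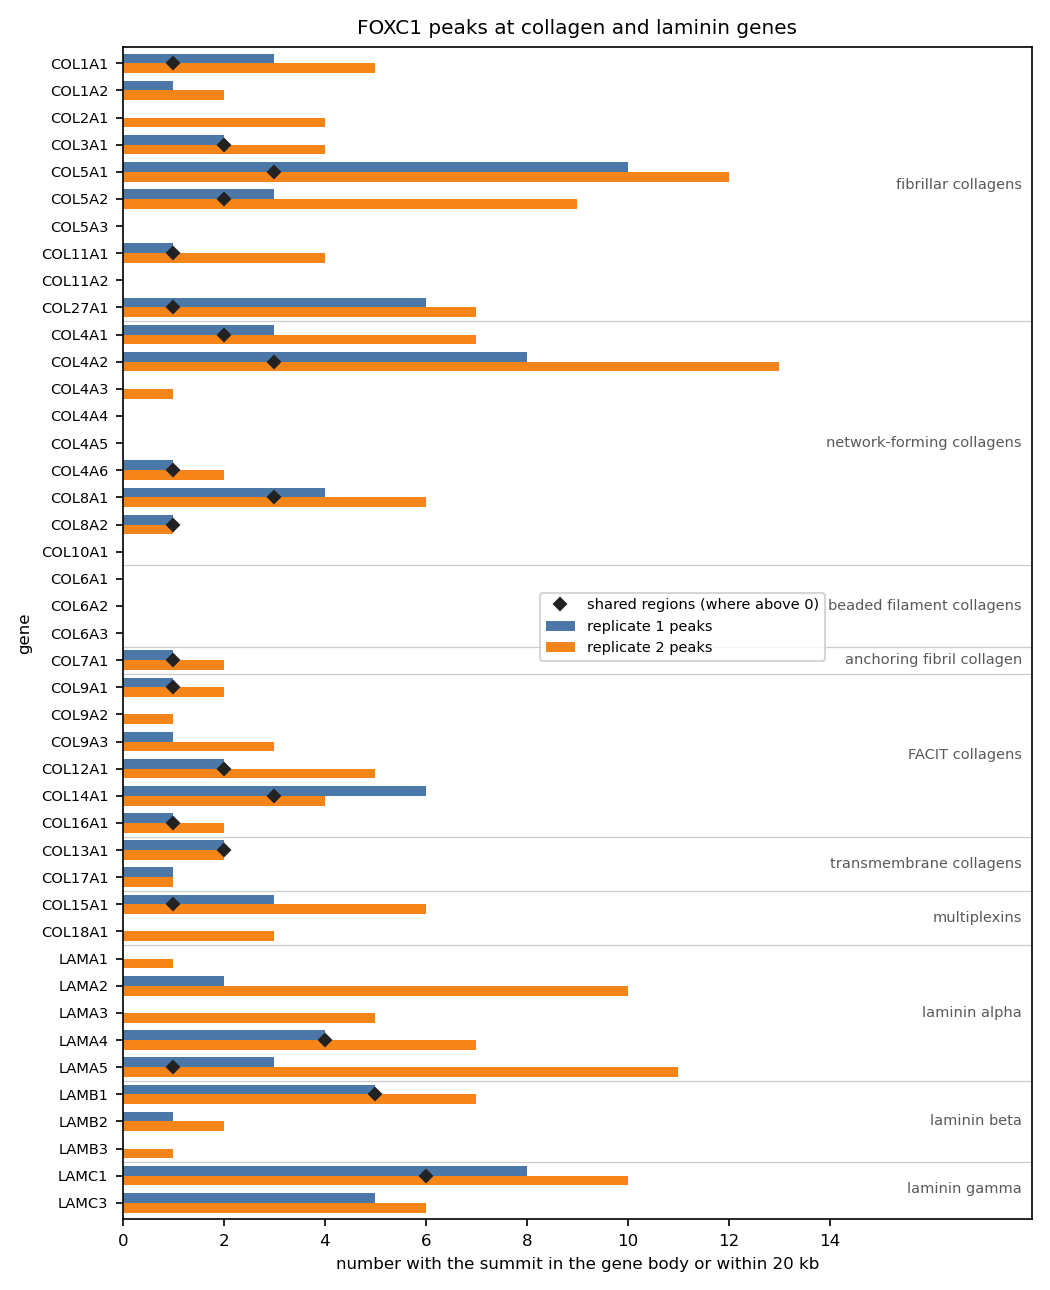
Number of FOXC1 peaks in the window of each collagen and laminin gene (x axis) by gene and role (y axis), with replicate 1 in blue, replicate 2 in orange and shared regions as black diamonds where there are any. COL5A1 had the most replicate 1 peaks (10) and COL4A2 the most replicate 2 peaks (13), LAMC1 had the most shared regions (6), and COL6A1, COL6A2 and COL6A3 had none.

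Over all protein-coding genes these shares rose with window length, so the collagen and laminin genes were next set beside genes of like length. Under 75 kb, 3 of 10 collagen and laminin genes (30.0%) had a shared region, beside 21.3% of protein-coding genes of that length. From 75 to 150 kb, the count was 5 of 13 (38.5%), beside 38.6%, so that this class was at the background. From 150 to 250 kb, it was 11 of 14 (78.6%), beside 58.9%. Over 250 kb, it was 3 of 6 (50%), beside 72.4%. The direction thus differed between classes, and with 6 to 14 genes in each, no class is shown to differ from genes of like length. The higher share over the whole list is likewise not shown apart from gene length. Reproducible regions were present at 0 of 10 genes under 75 kb, beside 10.0%, and at 3 of 13 (23.1%) from 75 to 150 kb, beside 20.7%. They were present at 6 of 14 genes (42.9%) from 150 to 250 kb, beside 37.4%, and at 2 of 6 (33.3%) over 250 kb, beside 52.6%. These shares too lay on both sides of the background.

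**Figure D2:**
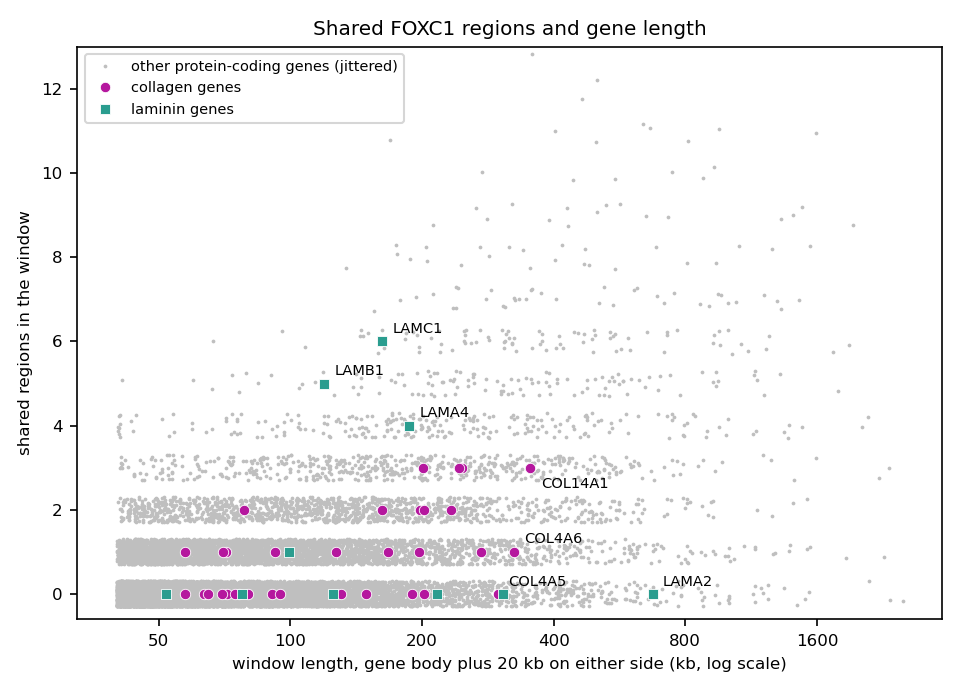
Shared regions per window (y axis) against window length in kb on a log scale (x axis), with collagen genes as magenta circles, laminin genes as green squares and other protein-coding genes as grey points jittered vertically. LAMC1 (6 regions, 1 reproducible), LAMB1 (5, of which 4 reproducible) and LAMA4 (4, none reproducible) stand high for their length, while the long genes LAMA2 and COL4A5 have no shared region.

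The density of shared regions had a median of 0.309 per 100 kb over the 43 genes and of 0 over all protein-coding genes. For the separate lists, the median densities were 1.09 per 100 kb in replicate 1 and 2.02 in replicate 2, beside 0 and 1.5 over protein-coding genes of any length. When the windows were merged into 6.89 Mb, they held 89 replicate 1 peaks, 164 replicate 2 peaks and 47 shared regions. The pooled densities were 1.29, 2.38 and 0.682 per 100 kb, compared with 0.889, 1.74 and 0.528 over the merged windows of all protein-coding genes. Of the 47 shared regions, 17 were reproducible (36.2%, exact binomial interval 22.7 to 51.5%), while the share over all protein-coding windows was 45.4%. This interval, like the others given for shares, covers counting error only at a 95% level.

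Among the fibrillar collagens, which form the banded fibres of connective tissue, 6 of 10 genes had a shared region and 2 had a reproducible region. Their windows ran from 57.5 to 272 kb with a median of 84.7 kb, and 38.6% and 20.7% of protein-coding genes from 75 to 150 kb had such regions. From 150 to 250 kb, the class of the 2 genes with a reproducible region, the shares were 58.9% and 37.4%. COL5A1, a chain of the type V collagen that limits fibril diameter, had 10 replicate 1 peaks, 12 replicate 2 peaks and 3 shared regions, of which 2 were reproducible. Its stronger region in intron 1 (chr9:137561651-137562401) had a fold enrichment over local background of 9.88 in replicate 1 and 15.5 in replicate 2, a mean of 12.7 ± 3.96 (SD, n = 2), with 71 and 153 reads over the summit. The reproducible region in intron 27 had fold enrichments of 6.45 and 13.6. COL27A1, a fibrillar collagen of cartilage, had 6 and 7 peaks in the respective lists but a single shared region, in intron 14 (chr9:116986049-116987083), at 7.19-fold and 12.0-fold. Both genes therefore carried strong intronic sites with the forkhead words shown above, and most of their other peaks were in 1 list only.

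The other fibrillar genes had weaker shared regions or none. COL3A1, the chain of type III collagen in skin and vessel walls, had 2 shared regions in intron 1, the stronger at 3.54-fold and 5.76-fold with an IDR of 0.057, just outside the threshold. Its density of 2.55 shared regions per 100 kb was reached by 3.33% of protein-coding genes of like length. COL5A2, the partner chain of COL5A1, had 3 peaks in replicate 1 and 9 in replicate 2, with 2 shared regions at IDRs of 0.25 and 0.29. COL11A1, a cartilage fibril chain, had 1 shared region in intron 4 at 3.29-fold and 4.39-fold. COL1A1, which encodes the major chain of type I collagen, had 1 shared region at 3.49-fold and 4.2-fold. That region lay past the end of the gene and 1086 bp from a start site of SGCA, a neighbouring gene. COL1A2, which encodes the other type I chain, had 1 peak in replicate 1 and 2 in replicate 2, none of them overlapping. COL2A1, the main cartilage collagen, had 4 peaks in replicate 2 only, and COL5A3 and COL11A2 had no peak in either list.

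Network-forming collagens, which include the type IV chains of basement membranes, had a shared region at 5 of 9 genes (55.6%) and a reproducible region at 3 (33.3%). Their windows ran from 70.0 to 324 kb with a median of 201 kb, and 58.9% and 37.4% of protein-coding genes from 150 to 250 kb had such regions. COL4A2 had 3 shared regions, of which the region in intron 6 (chr13:111077465-111078156) was reproducible, at 5.81-fold in replicate 1 and 19.3-fold in replicate 2, a mean of 12.53 ± 9.50 (SD, n = 2). Its reads numbered 34 and 130. The replicate 2 value was 3.31 times that of replicate 1, the widest gap among the 47 shared regions. The summit lay 677 bp from the start of a shorter COL4A2 transcript and 118 kb from the canonical start.

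COL4A1 and COL4A2 encode partner chains and are transcribed away from each other, with start regions that overlap. The windows of these neighbours had 4 replicate 2 peaks in common and no replicate 1 peak or shared region in common. A replicate 2 peak in intron 1 of COL4A1, within 2 kb of both canonical starts, had a fold enrichment of 2.53 with 13 reads, and it was not matched in replicate 1. COL4A1 had 2 shared regions, the better at 3.12-fold and 5.52-fold with an IDR of 0.083. COL4A6 had 1 shared region, which was reproducible and lay in intron 37 (chrX:107410511-107411252), at 9.83-fold and 29.5-fold with 53 and 154 reads. It held an AP-1 match and no forkhead match. COL4A5, which lies head to head with COL4A6 at a gap of 340 bp, had no peak in 298 kb, a state of 4.58% of protein-coding genes over 250 kb. COL4A3, in another such pair, had 1 replicate 2 peak, and its partner COL4A4 had no peak. The strongest type IV sites thus lay in introns and not at the paired starts.

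COL8A1, a short-chain collagen of vessel walls and the cornea, had 3 shared regions, of which 2 were reproducible. The stronger one lay at −1.04 kb from the canonical start, that is upstream, at 11.8-fold in replicate 1 and 21.2-fold in replicate 2, a mean of 16.5 ± 6.62 (SD, n = 2), with 81 and 124 reads. The other reproducible region lay at −17.5 kb at 7.94-fold and 10.1-fold. COL8A2, which encodes the partner chain, had 1 shared region in intron 2 at 2.66-fold and 4.2-fold, with an IDR of 0.20. COL10A1, the collagen of hypertrophic cartilage, had no peak.

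**Figure D3:**
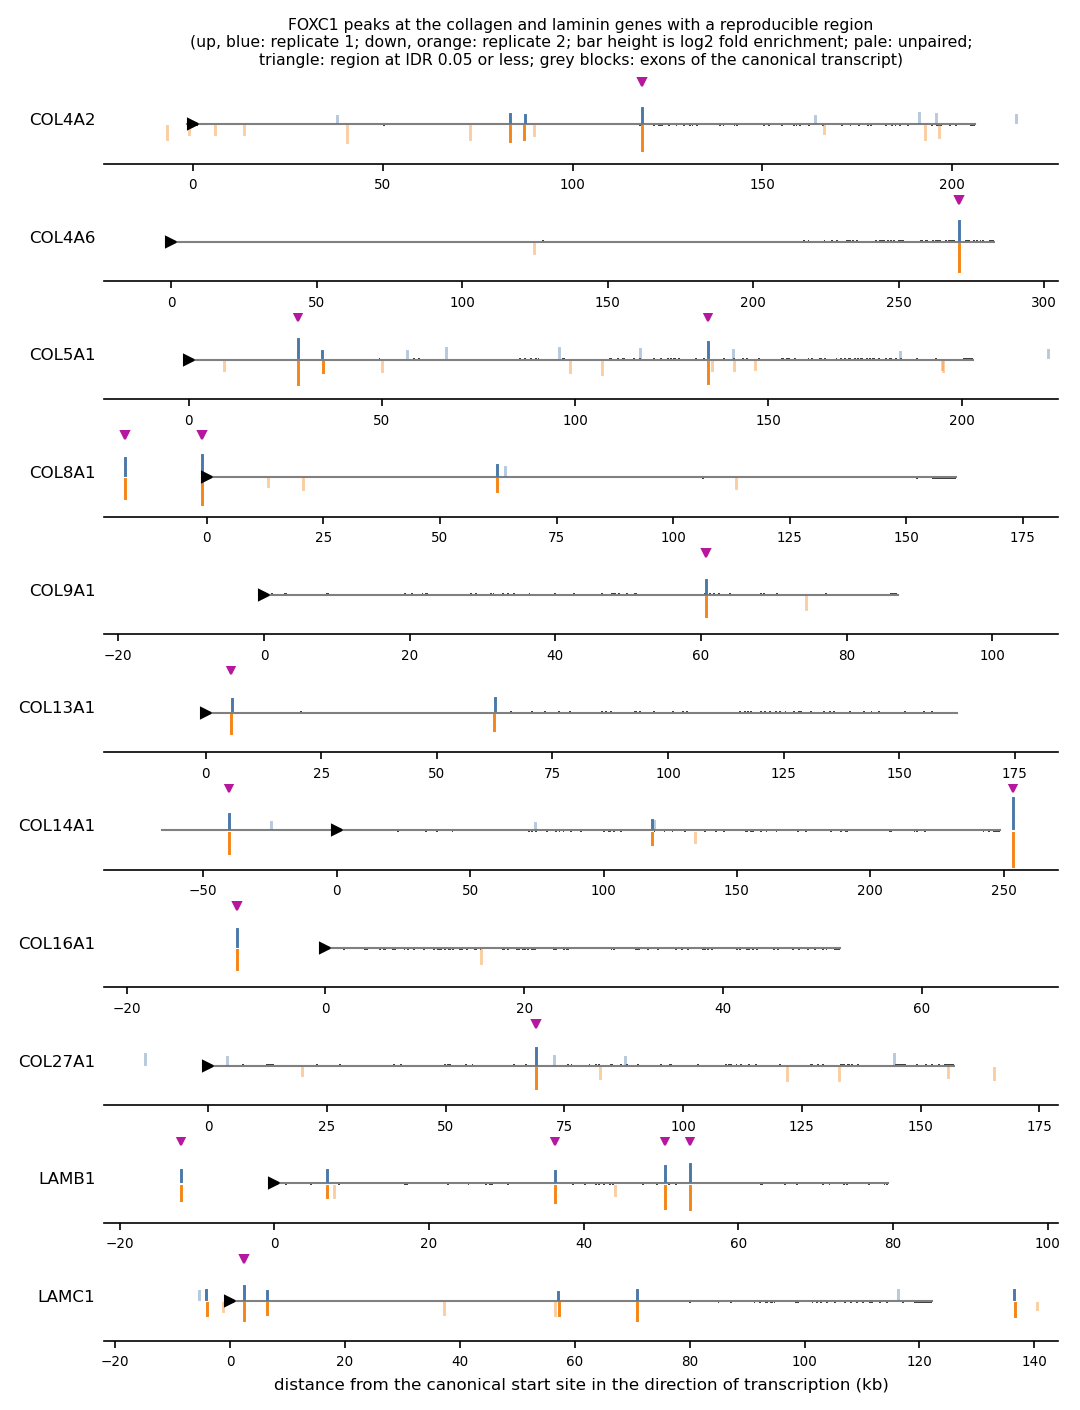
FOXC1 peaks along the 11 genes with a reproducible region, plotted by distance in kb from the canonical start in the direction of transcription, with replicate 1 upward in blue, replicate 2 downward in orange, unpaired peaks in pale colour and bar height as log2 fold enrichment. Triangles mark the reproducible regions. In 9 of these genes at least 1 sits inside the gene, although COL14A1 and LAMB1 among them also have a reproducible region outside it. Only COL8A1 has 1 at the start, at −1.04 kb.

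FACIT collagens, which attach to the surface of fibrils, had a shared region at 4 of 6 genes and a reproducible region at 3. Their windows ran from 57.3 to 354 kb with a median of 110 kb, and 38.6% and 20.7% of protein-coding genes from 75 to 150 kb had such regions. Over 250 kb, the class of COL14A1, the shares were 72.4% and 52.6%. COL14A1, which lies on type I collagen fibrils, held the strongest region of the whole list, 5027 bp past the end of the gene (chr8:121390302-121391343). Its fold enrichment was 43.9 in replicate 1 and 69.5 in replicate 2, a mean of 56.7 ± 18.1 (SD, n = 2), with 402 and 470 reads, and its summits were 3 bp apart. By the worse of its ranks in the replicates, it was in place 16 of all 13238 shared regions. It held neither a forkhead nor an AP-1 match within 50 bp of the summit, and the nearest annotated start, of COL14A1 itself, was 33154 bp away. A further reproducible region of COL14A1, at −40.4 kb from the canonical start but inside the annotated gene, had fold enrichments of 6.10 and 12.8 and held both words.

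COL16A1, a minor fibril-associated chain, had 1 shared region, which was reproducible and lay upstream at −8.89 kb (chr1:32178262-32178915), at 8.13-fold and 10.6-fold with 41 and 69 reads. COL9A1, a chain of the type IX collagen on cartilage fibrils, had a reproducible region in intron 29 (chr6:70951780-70952312) at 4.82-fold and 10.1-fold with 27 and 52 reads. Its summits were 2 bp apart, and the forkhead word lay at the summit. COL12A1, the relative of COL14A1, had 2 shared regions at IDRs of 0.31 each, although the forkhead word of the better region was centred on the summit. COL9A2 had 1 peak in replicate 2 only, and COL9A3 had 1 peak in replicate 1 and 3 in replicate 2, none shared.

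The remaining collagens were the transmembrane, multiplexin, anchoring fibril and beaded filament chains. COL13A1, a transmembrane collagen of cell junctions, had 2 shared regions, and the region in intron 1 was reproducible at 4.26-fold and 9.34-fold with 21 and 48 reads. COL17A1, the hemidesmosome collagen of epithelia, had 1 peak in each list, and they did not overlap. COL15A1, a multiplexin of basement membrane zones, had 1 shared region in intron 5 at 3.46-fold and 7.59-fold, with an IDR of 0.099. COL18A1, the multiplexin from which endostatin is cleaved, had 3 peaks in replicate 2 only. COL7A1, which forms the anchoring fibrils beneath epithelia, had 1 shared region at −3.21 kb, at 3.29-fold and 4.99-fold, with an IDR of 0.14. COL6A1, COL6A2 and COL6A3, whose chains form the beaded filaments around cells, had no peak in either list. Their windows measured 63.3, 74.7 and 130 kb, and 20.3% of protein-coding genes in the length class of COL6A3 likewise had no peak. In the class of COL6A1 and COL6A2, under 75 kb, 4604 of 11468 protein-coding genes had none.

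Laminin genes all had at least 1 peak, 4 of 10 (40%) had a shared region and 2 (20%) had a reproducible region. Their windows ran from 52.0 to 673 kb, with a median of 144 kb. Among the 5413 protein-coding genes from 75 to 150 kb, 4315 had a peak, and 38.6% and 20.7% had such regions. The laminin shares were thus near those of that class. LAMB1, the beta chain of the laminins found in most basement membranes, had 5 shared regions and 4 reproducible regions, more reproducible regions than any other gene of the list. The strongest, in intron 24 (chr7:107589314-107590131), had fold enrichments of 9.01 and 17.9, a mean of 13.5 ± 6.28 (SD, n = 2), with 48 and 93 reads. The region in intron 22 had fold enrichments of 7.1 and 15.3, that in intron 13 had 3.43 and 7.98, and that upstream at −12.1 kb had 4.15 and 5.89. Every one of the 5 replicate 1 peaks of LAMB1 was overlapped by replicate 2. Its density of 4.19 shared regions per 100 kb was reached by 24 of 5413 protein-coding genes of like length (0.443%).

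LAMC1, the gamma chain of most laminins, had the most shared regions of the list, 6, at a density of 3.70 per 100 kb that 13 of 1883 protein-coding genes of like length reached (0.690%). Only 1 of them was reproducible, in intron 1 and 2.42 kb from the start (chr1:182994696-182995223), at 5.25-fold and 8.35-fold with 30 and 53 reads. The other 5 had fold enrichments of 2.47 to 3.02 in replicate 1 and of 3.59 to 8.43 in replicate 2. The region at 2.47-fold in replicate 1 had a q-value above 0.05 there (−log10 q of 1.11). LAMC1 was thus the gene with many weak shared sites and LAMB1 the gene with several reproducible ones.

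LAMA4, an alpha chain of vessel and muscle basement membranes, had 4 shared regions, none reproducible. Its best region, in intron 2 and 80 bp from the start of a shorter transcript, had fold enrichments of 3.95 and 12.3 and an IDR of 0.075, just outside the threshold. At its regions in introns 9 and 4, the replicate 1 peaks had a −log10 q of 0.65 and 0.07, that is a q-value above 0.05. LAMA5, the broadly expressed epithelial alpha chain, had 3 peaks in replicate 1 and 11 in replicate 2, yet 1 shared region, in exon 2 at 3.38-fold and 3.25-fold. Its 11.1 replicate 2 peaks per 100 kb were reached by 15 of 5413 protein-coding genes of like length, and 10 of its 11 peaks were unpaired, with a median of 64.4% G and C around the summit. The part of base composition in this count was not tested. LAMA2, the muscle alpha chain and the longest gene of the list, had 2 peaks in replicate 1 and 10 in replicate 2 and no shared region, a state of 20.4% of the 206 genes with windows at least as long. LAMA1 had 1 peak, LAMA3 5 and LAMB3 1, all in replicate 2 only. LAMB2 had 1 and 2 peaks that did not overlap. LAMC3 had 5 and 6 peaks with no shared region in its window, and 1 of its replicate 2 peaks was paired with a replicate 1 peak whose shared region lay just outside. LAMA3 and LAMB3, which encode chains of the laminin that anchors epithelia to the membrane beneath, were thus reached in 1 list only.

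Most shared regions were inside genes and more than 2 kb from an annotated start. Of the 47 regions, 35 were in introns of the canonical transcript, 11 of these in intron 1. Another 1 was in an exon and 1 in the gene body outside the canonical transcript. The remaining 7 upstream and 3 downstream regions lay in the flanks. For these positions no share over all shared regions is given here. Set against length, the density was 0.697 per 100 kb of gene body and 0.633 per 100 kb of flank, so that gene bodies held little more than their flanks. A summit lay within 2 kb of any annotated start in 7 of 47 regions (14.9%, exact binomial interval 6.20 to 28.3%), compared with 25.9% of the shared regions in all protein-coding windows. For 3 of those 7, the nearest start belonged to a gene outside the list. The only shared region within 2 kb of a member's own canonical start was that of COL8A1, and 4.89% of protein-coding genes have such a region.

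In the separate lists, a replicate 1 peak lay within 2 kb of the canonical start of COL8A1 alone, beside 6.38% of protein-coding genes. Replicate 2 peaks lay there in 7 genes, beside 16.4%, and these were COL4A1, COL4A2, COL8A1, COL9A3, LAMA4, LAMB2 and LAMC1. COL4A1 and COL4A2 counted the same peak. Outside COL8A1, the start peaks of replicate 2 had fold enrichments of 2.53 to 4.80 and no forkhead match. The count of 7 in 43 genes was at the background share.

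The forkhead consensus was present within 50 bp of the summit in 15 of 47 shared regions (31.9%, exact binomial interval 19.1 to 47.1%) and in 5 of 47 control windows 500 bp downstream (10.6%). Over all 13238 shared regions, the shares were 48.7% at the summit and 10.8% in the control window. The strength of the regions divided the list. Among the 17 reproducible regions, 10 held a match (58.8%, interval 32.9 to 81.6%), beside 52.7% of all reproducible regions. Among the other 30, 5 held a match (16.7%, interval 5.64 to 34.7%), beside 45.3% of all shared regions above an IDR of 0.05. The lower share over the list therefore lay in its weaker shared regions.

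**Figure D4:**
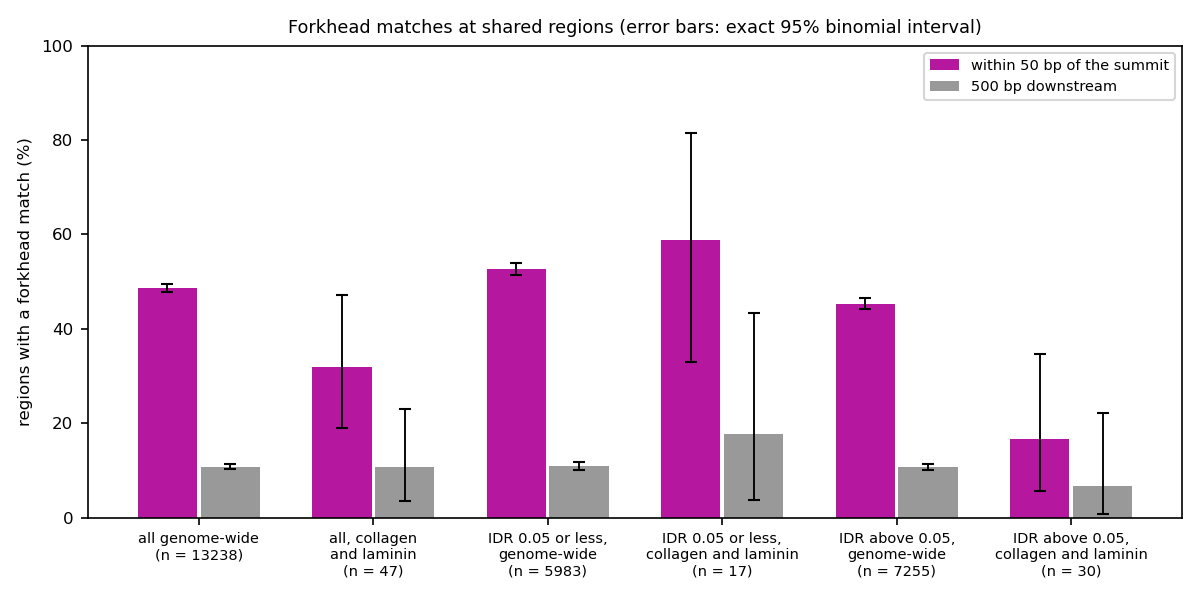
Share of shared regions with a forkhead word within 50 bp of the summit (magenta) and in a control window 500 bp downstream (grey), in percent, with exact 95% binomial intervals, for all regions and split at an IDR of 0.05, genome-wide and at collagen and laminin genes. Reproducible regions at collagen and laminin genes held a match in 58.8%, weaker ones in 16.7%, and the genome-wide shares were 52.7% and 45.3%.

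By word, 7 of the 47 regions held ATAAACA, 4 held GTAAACA, 3 held GTAAATA and 1 held ATAAATA. Over all shared regions these words were found in 18.1%, 20.8%, 7.09% and 7.59%. The AP-1 words were found in 9 of 47 regions (19.1%, interval 9.15 to 33.3%) and in 2 control windows (4.26%), compared with 16.6% and 1.93% over all shared regions. The strong COL8A1 and COL4A6 regions each held AP-1 and no forkhead word, whereas COL5A1, COL27A1, COL4A2, COL9A1, LAMC1 and COL13A1 had a forkhead word and no AP-1 word at their best region. The best regions of COL14A1, COL16A1 and LAMB1 held neither, which says only that these letters are not within 50 bp of the summit. The sequence around the summits had a median of 41.6% G and C, beside 39.6% over all shared regions.

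Fold enrichment was next compared between replicates at the same regions. It was higher in replicate 2 in 44 of 47 regions (93.6%), beside 91.9% of all shared regions. Its medians were 3.49 in replicate 1 and 5.89 in replicate 2, beside 3.79 and 6.71 over all shared regions. Replicate 2 values were a median of 1.59 times those of replicate 1 (95% interval from order statistics across regions, 1.52 to 1.84), with a range of 0.785 to 3.31, and 1.69 times over all shared regions. Spearman's rho across the 47 regions was 0.757, as a description of regions that share the same pair of libraries. The SD of the log2 ratio of summit reads was 0.40, and counting error alone would give 0.38. The median reads over a summit were 22 and 39, so that a typical region rested on few reads in replicate 1. In 7 of the 47, the replicate 1 peak had a q-value above 0.05, beside 957 of 8759 paired replicate 1 peaks in all protein-coding windows. The median distance between the summits of the replicates was 24 bp, beside 28 bp over all shared regions. This distance was at most 100 bp in 38 of 47 regions (80.9%), beside 88.1% of all shared regions.

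**Figure D5:**
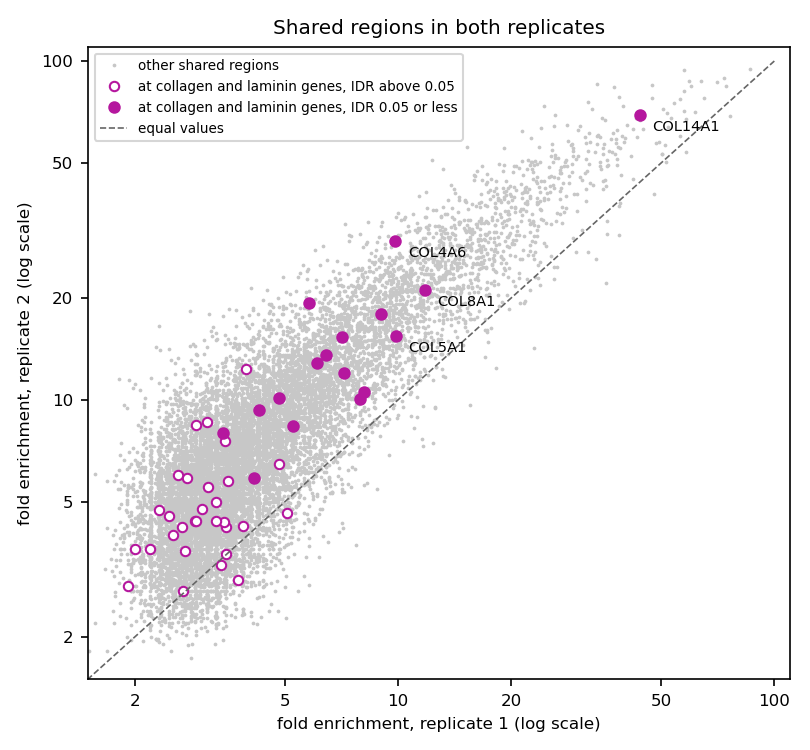
Fold enrichment of shared regions in replicate 1 (x axis) and replicate 2 (y axis), both on log scales, with regions at collagen and laminin genes in magenta (filled at an IDR of 0.05 or less, open above) and all other shared regions in grey. Of the 47 magenta points, 44 lie above the dashed line of equal values, and COL14A1, at 43.9 and 69.5, lies far from the rest.

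Many peaks of the list were found in 1 replicate only. In replicate 1, 47 of 89 peaks (52.8%, interval 41.9 to 63.5%) were overlapped by replicate 2, beside 59.8% in all protein-coding windows. In replicate 2, 48 of 164 (29.3%, interval 22.4 to 36.9%) were overlapped by replicate 1, beside 30.5%. The 42 unpaired peaks of replicate 1 had a median fold enrichment of 2.55. Of these peaks, 27 had a q-value above 0.05, beside 3568 of 5876 unpaired replicate 1 peaks in all protein-coding windows. A forkhead match was present in 2 (4.76%, beside 14.5%). Their median G and C content was 52.0%, and 42.6% in the paired peaks of replicate 1, beside 44.6% and 40.6% in all protein-coding windows. The 116 unpaired peaks of replicate 2 had a median fold enrichment of 3.16 and a forkhead match in 36 (31.0%, beside 32.5%).

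A −log10 q of 5 or more was reached by 25 of the 116 unpaired replicate 2 peaks, beside 4569 of 19858 in all protein-coding windows, a like share. It was reached by 0 of the 42 unpaired replicate 1 peaks, beside 18 of 5876. The 25 peaks lay in the windows of 17 genes, 21 of them in introns, and 15 held a forkhead match. No intron or forkhead share for peaks of like strength over all protein-coding windows is given here. The strongest was in intron 1 of COL5A2 (chr2:189988953-189989487) at 8.55-fold with 62 reads and a forkhead match. COL4A2 had 1 in intron 3 at 7.32-fold, LAMA3 had 1 in intron 2 at 6.07-fold and COL17A1 had 1 in exon 28 at 5.92-fold. The COL5A2 value was higher than those of its shared regions in replicate 2, and LAMA3 and COL17A1 had no shared region.

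Genes that act with collagens and laminins, and 13 further collagen and laminin genes, were counted in the same way, from a list of 45 that are not members. A shared region was present at 22 of the 45 (48.9%) and a reproducible region at 12 (26.7%), beside 33.0% and 18.4% of all protein-coding genes. No peak was listed at 5, DDR1, LOX, P3H1, PCOLCE and PLOD3, beside 29.5%. The shares of the 45 genes were close to those of the 43 genes, and the median window of 129 kb was close as well. Among protein-coding genes from 75 to 150 kb, 38.6% had a shared region and 20.7% a reproducible region. Enzymes and chaperones of collagen maturation had a shared region at 10 of 25 genes (40%) and a reproducible region at 6 (24%). With a median window of 81.3 kb, they were near the shares of that length class. P3H2, a prolyl hydroxylase of collagen chains, had 12 and 21 peaks, 8 shared regions and 4 reproducible regions, more shared regions than any collagen or laminin gene. PLOD2, a lysyl hydroxylase of collagen, had 4 shared regions, of which 1 was reproducible, and PCOLCE2, an enhancer of procollagen processing, had 2, both reproducible.

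Among the basement membrane partners, NID2 and HSPG2 each had 2 shared regions with 1 reproducible, while NID1 and AGRN had none. Of the receptors, DDR2 had 1 shared region and DAG1 had none. Further collagen and laminin genes outside the list had a shared region at 9 of 13 genes (69.2%) and a reproducible region at 4 (30.8%), with a median window of 236 kb. Among protein-coding genes from 150 to 250 kb, the shares were 58.9% and 37.4%. LAMB4, a neighbour of LAMB1, owed its only shared region to the LAMB1 window, since the region at −12.1 kb from the LAMB1 start lies in both.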

How the data were processed

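FOXC1 ChIP-seq libraries of J82 cells were read as single-end 75-bp reads. Per the study's methods, bwa mapped the reads to hg19, peaks were called against input with MACS2 2.2.7.1, and the IDR tool was applied. One peak list per replicate was used here, and files of the inputs were not analysed here. The authors deposited for each peak a score, a fold enrichment (the ratio of pileup to local background), and −log10 p and −log10 q values. Entries outside chromosomes 1 to 22, X and Y were left out (42 and 43). Peaks sharing at least 1 bp were merged into shared regions, with the summit midway. Reads over summits were recovered from fold enrichment and −log10 p (residual under 0.001). Depth rests on the 2.7 Gb genome size of MACS2 and on the smallest peak widths, 260 and 270 bp. IDR was fitted with code written for this purpose, which was tested on simulated data, so counts need not match the authors' set. Genes came from GENCODE version 44 mapped to GRCh37.

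The members, lists and named genes were chosen with earlier results of these data known. Some sequences and 1 related gene are not reported here. All members are named, and values are given for the best region of those with a reproducible region. No test was run, and exact binomial intervals cover counting error only. Alternatives were the window, thresholds, pairing rule, start sites, motif and each replicate alone. Analyses used Python 3.11.15, numpy 2.4.6, scipy 1.17.1, pandas 2.3.3, pysam 0.24.0 and matplotlib 3.10.9.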

Additional observations from a re-analysis of the deposited data

How the results depend on the processing

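Of 50 recomputed values, 36 stayed within the limits of the reported value and 14 moved. With a −log10 q of at least 5 in both lists, 13 genes had a shared region (beside 20.2% of protein-coding genes) and 19 regions were left, and with a fold enrichment of at least 5 the numbers were 9 genes (beside 13.5%) and 13 regions. Each replicate alone gave 28 to 35 genes, 89 to 164 peaks and a median density of 1.09 to 2.02 per 100 kb. The median density of shared regions became 0 for gene bodies alone, for either of these minimums, for an overlap of 50% of both peaks and for summits within 100 bp. These values were counted as having stayed. The limit was the SD of the replicate medians, 0.66, which is above the density of 0.309 itself, so that no fall could count as moved. A 50 kb flank gave 28 genes, beside 46.6%, and gene bodies alone gave 19, beside 20%. The share near a start was 38.3% within 5 kb. The forkhead share was 17.0% within 25 bp, 8.51% for GTAAACA alone (beside 20.8% of all shared regions), 12.8% for the reversed consensus and 16.9 to 32.3% for each replicate alone. For the other forkhead settings and for the 5 kb distance, no share over all shared regions is given here. These moves are therefore not shown to be particular to these genes. The cause was not tested. No paired analysis was possible because no groups were compared: the replicate numbers name peak lists of a single group, and the inputs had no values here. Shared regions had a median of 22 reads over the summit in replicate 1, and a region absent from a list is not shown to be unbound.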
